A study of Mus musculus with 30 samples.

Results

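The CCN genes encode a small family of secreted, matrix-associated proteins. Their transcripts were followed across 30 libraries from mouse hearts collected 8 weeks after surgery. Members were chosen by symbol: the rows of the count table for Ccn1, Ccn2, Ccn3, Ccn4 and Ccn5, formerly Cyr61, Ctgf, Nov, Wisp1 and Wisp2, which are 5 of 55487 gene identifiers. Surgery was transverse aortic constriction (TAC, a clip around the aorta that raises the pressure load on the left ventricle) or a sham operation. Clips of 0.016 and 0.018 inch were used, without a record of which mouse had which. Mice carrying floxed Cpt1a gave 4 libraries per group. FF_sham and FF_TAC are the floxed controls, and KO_sham and KO_TAC come from mice labelled as cardiac-specific knockouts of Cpt1a. Cpt1a encodes an enzyme that passes long-chain fatty acids into mitochondria. In the other cohort, C57Bl/6 mice received saline (PBS_sham and PBS_TAC, 3 libraries each) or AAV9.cTNTN.Cpt1a (AAV_sham and AAV_TAC, 4 libraries each), an adeno-associated virus in which the cardiac troponin T promoter drives Cpt1a. The labels used here give neither sex nor age, nor the driver of the knockout. The design asks how loss or gain of Cpt1a in heart muscle bears on the response to pressure overload.

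CCN proteins are built from modules shared with insulin-like growth factor binding proteins, von Willebrand factor, thrombospondin and cystine-knot growth factors, and they act by binding integrins, heparan sulphate proteoglycans and growth factors. CCN1 and CCN2 are textbook targets of the YAP and TAZ coactivators working through TEAD factors, and both are also induced by serum response factor and by TGF-beta. In the heart CCN2 is widely used as a marker of fibrosis, and CCN5, which lacks the C-terminal cystine-knot module, has been described as countering CCN2. Much cardiac CCN expression is known from fibroblasts and stressed cardiomyocytes. In whole-heart RNA, fewer cells of a type and less RNA per cell cannot be told apart.

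In the mouse GRCm38 genome with the GENCODE M21 annotation, Ccn1 (ENSMUSG00000028195) lies on the minus strand at chr3:145646976-145649981. Ccn2 (ENSMUSG00000019997) lies on the plus strand at chr10:24595442-24598683. Ccn3 (ENSMUSG00000037362) and Ccn4 (ENSMUSG00000005124) share a chromosome and the plus strand, at chr15:54745702-54754039 and chr15:66891320-66923201. Ccn5 (ENSMUSG00000027656) lies on the plus strand at chr2:163820861-163833146. The coding sequence of Ccn5 is the shortest, with 753 bases against 1044 to 1137 in the other 4 genes. Exons of Ccn2 overlap those of Gm15270 on the opposite strand over 665 bases, so Ccn2 counts could hold reads of that gene. Gm15270 itself had 18 to 50 counts per library where Ccn2 had 756 to 18399. Counts here and below are summed over all exons of a gene.

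Among the 5 members, Ccn1 was matched in the RefSeq promoter table for GRCm38.p6. Its upstream bases are printed because TEAD and serum response factor, the regulators named above, act on Ccn1, and because Ccn1 varied together with early response genes in these hearts. The 250 bases before the annotated start lie on the minus strand at chr3:145649986-145650235, and capitals mark a match to the TEAD motif GGAATG, here on the strand opposite to the gene.
Ccn1 promoter: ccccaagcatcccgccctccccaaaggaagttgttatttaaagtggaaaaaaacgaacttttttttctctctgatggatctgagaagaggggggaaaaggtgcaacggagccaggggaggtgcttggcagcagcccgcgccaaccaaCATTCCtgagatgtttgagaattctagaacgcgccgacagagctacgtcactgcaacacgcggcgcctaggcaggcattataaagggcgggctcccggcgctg
The match begins 103 bases before the start. GGAATG was searched on both strands and occurs in 12.6% of the 32851 promoters of this length in the table. The AP-1 motif TGANTCA (6.75% of promoters) and the CArG box of serum response factor (1.47%) had no match in these bases. A match of letters is a description and does not show binding.

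Libraries held 14839758 to 22070373 counts. The tests covered 15596 genes for the floxed mice and 15745 for the C57Bl/6 mice of the AAV9 cohort. All 5 members passed the filter on low counts in both. Summed haemoglobin transcripts split the libraries: 7 had 1.396 to 51.1 CPM (counts scaled to a common library total) and 23 had 293.9 to 943.5 CPM. The 7 were the 4 KO_TAC libraries and those labelled FF_TAC 2, FF_TAC 3 and KO_sham 2. Early response genes such as Fos and Egr1, which rise within minutes of a stimulus, were high in the same 7, with a mean over 15 genes of 6.47 to 8.04 log2 CPM. This mean was 2.64 to 3.24 for the remaining 9 libraries of floxed mice and 3.86 to 5.29 for those of C57Bl/6 mice. Cpt1a itself stood at 38.6 to 53.4 CPM in FF_sham and 11.3 to 19.7 in KO_TAC. The library labelled KO_sham 2 had 46.8 CPM where the other KO_sham libraries had 20.8 to 23.8, and those labelled FF_TAC 2 and FF_TAC 3 had 21.0 and 16.7. These 3 libraries went against their labels by Cpt1a, and directions drawn from them carry that limit. In the AAV9 cohort Cpt1a stood at 36.7 to 69.9 CPM with saline and 43.8 to 85.8 with the vector. Cardiomyocyte markers were abundant in each library, with PBS_sham 3 lowest at 26908 CPM summed over 8 genes against 51686 to 75363 elsewhere.

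Per transcript length, Ccn1 and Ccn2 made up most of the family. Their joint share of the summed level of the 5 members ran from 70.6% to 97.6% of TPM (counts divided by exon length and scaled to a common total). Ccn1 exceeded Ccn2 per length in 17 of 30 libraries, and both exceeded the other 3 members in 30 of 30. Ccn5 came next in 28 of 30, the exceptions being PBS_sham 2 and 3, where Ccn3 was above it. Ccn4 was lowest in 30 of 30, at 0.253 to 3.65 TPM. The summed level of the family ran from 104.7 to 401.9 TPM in the 23 libraries with high haemoglobin, from 516.0 to 713.6 TPM in the 3 low-haemoglobin libraries outside KO_TAC and from 807.8 to 1636 TPM in KO_TAC. Ccn1 held 69.6% to 75.2% of that sum in the 3 libraries and 34.5% to 54.6% in KO_TAC. The remaining family gene, Ccn6 (Wisp3), had 0 to 4 counts per library, and its exons overlap Tube1 on the opposite strand.

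**Figure D1:**
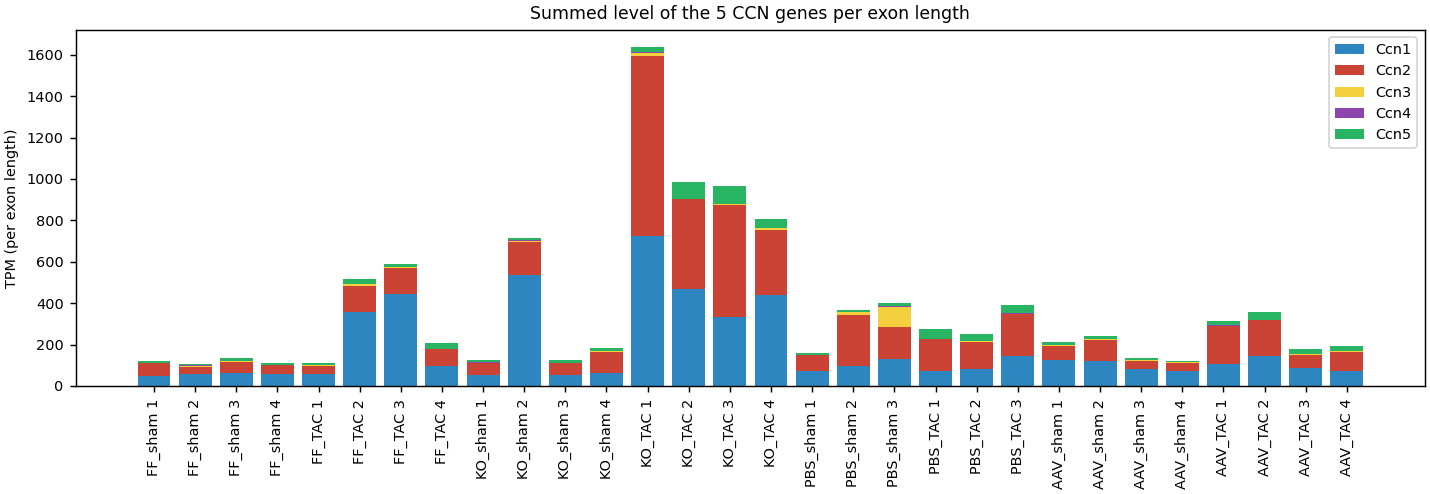
Stacked bars give the level of the 5 CCN genes in each of the 30 libraries in TPM by exon length, coloured by gene. Ccn1 (blue) and Ccn2 (red) fill most of each bar, and the 4 KO_TAC bars are the tallest, at 807.8 to 1636 TPM in sum.

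After TAC in knockout hearts, 2 of the 5 members rose: Ccn2 and Ccn5. Those 2 genes were also higher in KO_TAC than in FF_TAC, and Ccn5 rose after TAC in saline-injected hearts. Against KO_sham, 25.8% of all genes tested were called (adjusted p under 0.05 by edgeR's quasi-likelihood test), 14.3% in the higher direction, with a median log2 fold change of 0.02 over all genes and 1.44 over the 5 members. Against FF_TAC, 14.3% of genes were called, 7.53% in the higher direction, with medians of 0.04 over all genes and 1.502 over the members. Both comparisons use the same 4 KO_TAC libraries. In PBS_TAC against PBS_sham, 1 member was called where 0.0318% of genes were (0.0127% higher), and the median of the members was 0.28. No member was called in the remaining 7 comparisons. Few genes of any kind were called there: 0% in FF_TAC against FF_sham and in KO_sham against FF_sham, 0.0449% for the interaction of knockout and TAC, 0.00635% in AAV_TAC against AAV_sham, 0.0127% in AAV_sham against PBS_sham, 0.0381% in AAV_TAC against PBS_TAC and 0.00635% for the interaction of vector and TAC. At an unadjusted p under 0.05 stood 3 members in FF_TAC against FF_sham (11.1% of all genes), 0 in KO_sham against FF_sham (5.22%), 1 for the knockout interaction (13.1%) and 2 in AAV_TAC against AAV_sham (7.05%). The numbers were 2 in AAV_sham against PBS_sham (20.7%), 1 in AAV_TAC against PBS_TAC (3.19%) and 2 for the vector interaction (6.95%). In these 7 comparisons DESeq2 called 1 member in AAV_TAC against AAV_sham and 1 in AAV_sham against PBS_sham. Over all genes it called 117 and 373 of 15745 there. With limma voom, 2 members were called for the interaction of knockout and TAC and 1 in AAV_TAC against AAV_sham. Over all genes voom called 2930 of 15596 and 367 of 15745 there.

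**Figure D2:**
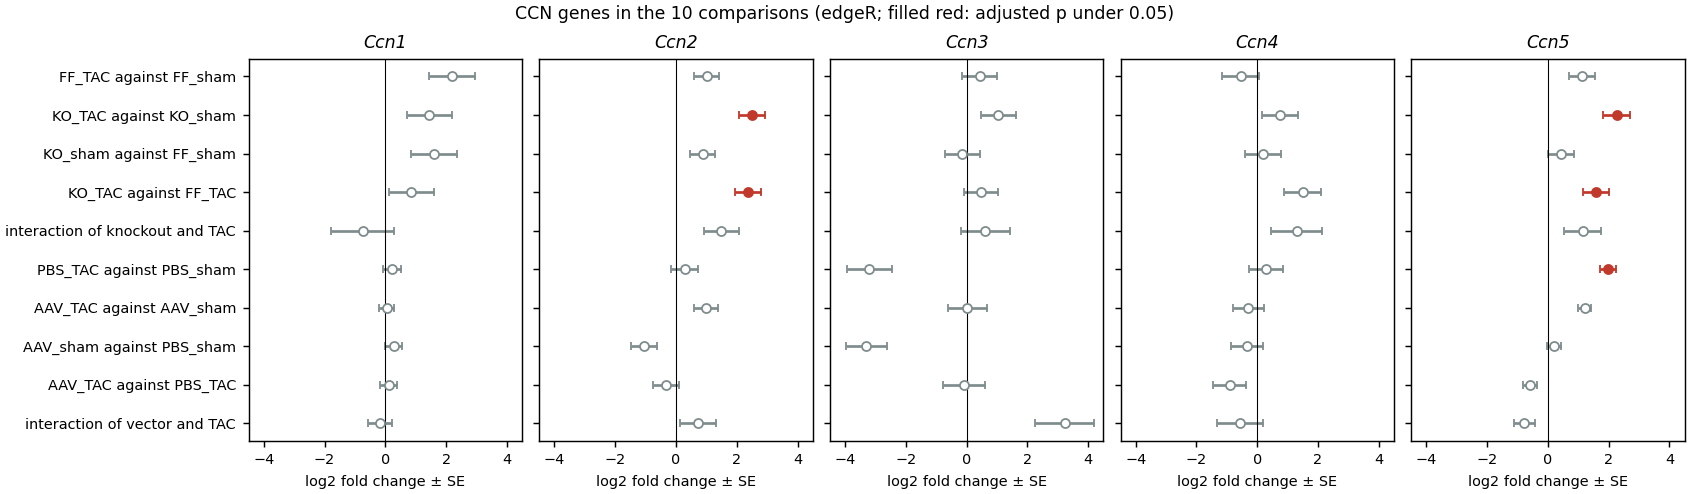
Points give the log2 fold change of each CCN gene (1 panel per gene) in the 10 comparisons, with bars of 1 standard error on each side. Filled red points mark an adjusted p under 0.05: Ccn2 and Ccn5 in both KO_TAC comparisons and Ccn5 in PBS_TAC against PBS_sham.

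Ccn2, the connective tissue growth factor gene, was highest in knockout hearts after TAC. The 4 KO_TAC libraries had 912, 627, 687 and 395 CPM. The KO_sham libraries had 69.4, 204, 74.8 and 116 CPM, where 204 belongs to the library labelled KO_sham 2. Each KO_TAC library was above each KO_sham library, and 23% of genes tested had groups that did not overlap in that comparison. Ccn2 rose by 2.50 on the log2 scale (SE 0.43, adjusted p = 0.0022), from 116 ± 62.1 to 656 ± 212 CPM (SD, n = 4 each). Floxed controls after TAC had 49.4, 191, 174 and 103 CPM. These also lay below each KO_TAC library (13.7% of genes had no overlap there), and the log2 difference of KO_TAC from FF_TAC was 2.37 (SE 0.43, adjusted p = 0.0027).

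In floxed controls Ccn2 did not pass the test after TAC. FF_sham libraries had 83.0, 41.6, 68.2 and 61.1 CPM, a range that overlapped FF_TAC. The log2 fold change was 1.01 (SE 0.41, adjusted p = 0.413). The difference between the TAC responses of knockout and control hearts was itself 1.496 on the log2 scale (SE 0.58, adjusted p = 0.285), so it did not pass the test. With limma voom it was 2.11 (adjusted p = 0.0114), where voom called 2930 of 15596 genes and edgeR 7.

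Haemoglobin and early response transcripts moved with Ccn2. Low-haemoglobin libraries had 1.24 more Ccn2 (log2, SE 0.29) than the others in a fit that held the group means. FF_sham and KO_TAC each fell in a single haemoglobin class, so for each member this term rests on FF_TAC and KO_sham. The low-haemoglobin libraries there are those labelled FF_TAC 2, FF_TAC 3 and KO_sham 2, which went against their labels by Cpt1a. The 3 low-haemoglobin libraries outside KO_TAC had 174 to 204 CPM, against 41.6 to 116 in the 9 floxed libraries with high haemoglobin. KO_TAC, at 395 to 912 CPM, lay above both. With a haemoglobin term in the fit, Ccn2 was the member still called in both KO_TAC comparisons, among 273 genes against KO_sham and 1127 against FF_TAC. Its log2 fold change was then smaller, at 1.68 against KO_sham (SE 0.37, adjusted p = 0.0397) and 1.88 against FF_TAC (SE 0.33, adjusted p = 0.0064). Among the 7 low-haemoglobin libraries alone, the difference was 1.68 against the single library labelled KO_sham 2 (adjusted p = 0.290) and 1.85 against those labelled FF_TAC 2 and 3 (adjusted p = 0.261). Leaving out any 1 library kept both calls, at 2.29 to 2.91 and 2.09 to 2.61.

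In the AAV9 cohort Ccn2 ranged widely within groups. PBS_sham had 98.9, 261 and 137 CPM, and PBS_TAC had 191, 144 and 262 CPM. With the vector, AAV_sham had 84.3, 128, 55.6 and 50.7 CPM and AAV_TAC 223, 215, 79.5 and 120.4 CPM. The libraries of sham and TAC overlapped with either injection. None of these contrasts passed: the log2 fold change was 0.28 after TAC with saline (SE 0.45, adjusted p = 0.721), 0.999 after TAC with the vector (SE 0.40, adjusted p = 0.598) and -1.05 in AAV_sham against PBS_sham (SE 0.42, adjusted p = 0.201). Ordered by group mean, KO_TAC (656 CPM) stood clear of PBS_TAC (199 CPM), and all the lower neighbours, from PBS_TAC down to FF_sham (63.5 CPM), overlapped. KO_TAC and PBS_TAC come from different cohorts, and the share of all genes separating them was not computed.

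**Figure D3:**
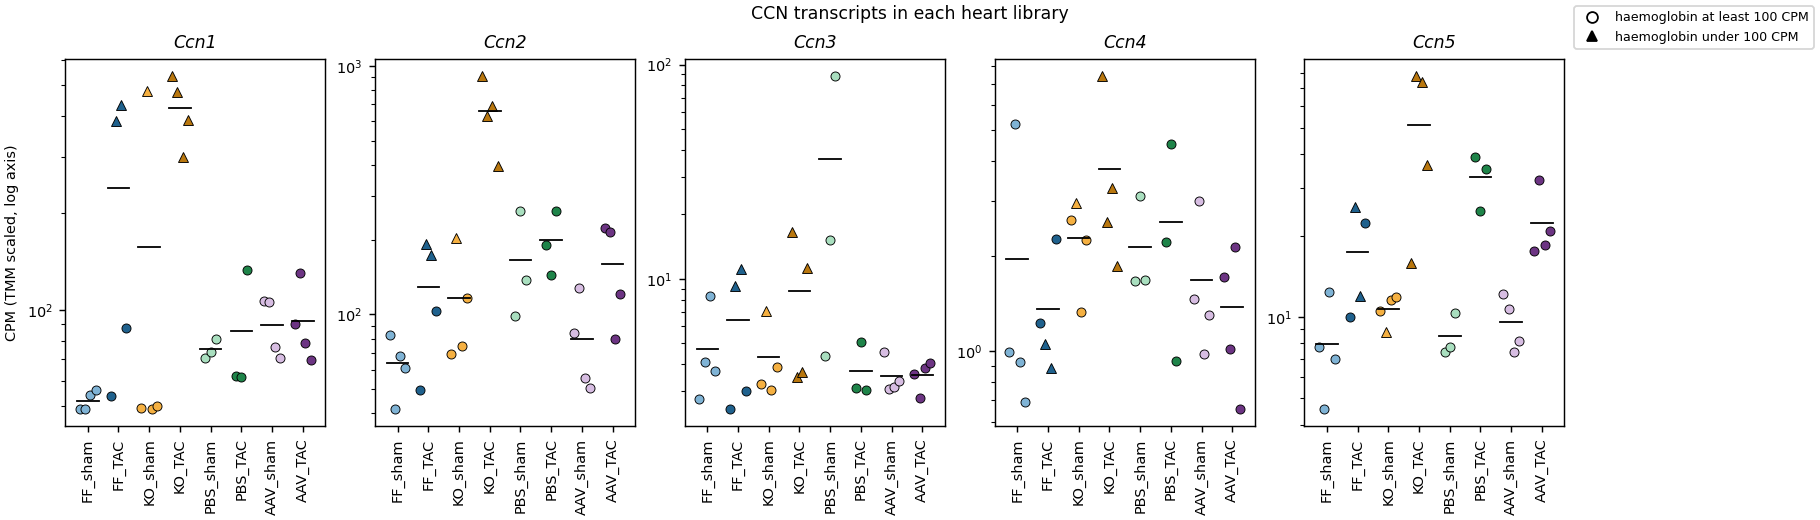
Each symbol is the TMM-scaled CPM of a CCN gene in 1 library, on a log axis, by group, with a line at the group mean; triangles mark the 7 libraries with summed haemoglobin under 100 CPM. Ccn1 is high in those 7 libraries, Ccn2 is highest in KO_TAC, and Ccn5 is higher after TAC than after sham in the AAV9 cohort without overlap. TAC and sham did not overlap for 14.5% of genes tested with saline and 10.3% with the vector.

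Ccn5, the member without the cystine-knot module, was above every sham library of the study in 13 of 15 TAC libraries. The exceptions were FF_TAC 1 and the library labelled FF_TAC 3. The share of all genes with such a separation was not computed. In saline-injected hearts PBS_sham had 7.41, 7.73 and 10.4 CPM and PBS_TAC 39.0, 24.6 and 35.2 CPM. These groups did not overlap, as for 14.5% of genes tested and 7.28% in the higher direction. Ccn5 rose by 1.98 (log2, SE 0.26, adjusted p = 0.0205), from 8.51 ± 1.63 to 33.0 ± 7.47 CPM (SD, n = 3 each). That call held in 3 of the 6 fits with 1 library left out, at 1.85 to 2.15, and was lost without PBS_sham 2, PBS_TAC 1 or PBS_TAC 3 (highest adjusted p = 0.125). It was also lost with all 30 libraries in one fit (adjusted p = 0.0697), with the 2 groups alone (adjusted p = 0.268) and with a covariate for atrial tissue (1.83, adjusted p = 0.172).

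With the vector, AAV_sham had 12.1, 10.7, 7.44 and 8.14 CPM of Ccn5 and AAV_TAC 17.6, 32.1, 18.4 and 20.8 CPM. These groups did not overlap either, as for 10.3% of genes, and the log2 fold change was 1.21 (SE 0.22, adjusted p = 0.132). It missed the threshold with edgeR's main design and passed it with DESeq2 (adjusted p = 0.000588), limma voom (0.0131), no filter on low counts (0.0148) and the 2 groups alone (0.0336). The other 5 of 9 alternative settings, all with edgeR, left it uncalled (highest adjusted p = 0.486). With 1 library left out, edgeR called it in 0 of 8 fits (adjusted p of 0.163 to 0.420). Over both injections, the 7 TAC libraries had 17.6 to 39.0 CPM and the 7 sham libraries 7.41 to 12.1 CPM. How many of all genes separated over both injections was not computed. The response with the vector was smaller by 0.77 on the log2 scale than with saline (SE 0.33, adjusted p = 0.688), and AAV_TAC was 0.58 below PBS_TAC (SE 0.23, adjusted p = 0.99997). Neither difference passed the test.

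In the floxed cohort Ccn5 was highest in KO_TAC, with 15.9, 77.9, 74.1 and 36.6 CPM. KO_sham had 10.6, 8.79, 11.5 and 11.9 CPM, all below the KO_TAC libraries. These groups did not overlap for 23% of genes tested, 10.5% in the higher direction. Here Ccn5 rose by 2.26 (log2, SE 0.44, adjusted p = 0.0037), and the call held in 8 of 8 fits with 1 library left out, at 1.98 to 2.55. Controls had 7.72, 4.56, 12.4 and 6.97 CPM after sham and 10.0, 25.4, 12.0 and 22.2 CPM after TAC. Those control groups overlapped, with a log2 fold change of 1.12 (SE 0.44, adjusted p = 0.393). KO_TAC exceeded FF_TAC by 1.58 (SE 0.43, adjusted p = 0.0239), although KO_TAC 1 lay within the FF_TAC range. That call was kept in 4 of 8 fits and lost without FF_TAC 1, the library labelled FF_TAC 3, KO_TAC 2 or KO_TAC 3. It was also lost with only the 2 groups in the fit (adjusted p = 0.112). For Ccn5 the TAC response in knockouts exceeded that in controls by 1.14 (SE 0.61, adjusted p = 0.434), or by 1.47 with limma voom (adjusted p = 0.0398). Over all genes, voom called 2930 of 15596 for that contrast.

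For Ccn5 the low-haemoglobin libraries differed from the others by -0.02 on the log2 scale in the fit with group means (SE 0.48). With a haemoglobin term, the fold changes stayed near 2.27 against KO_sham and 1.58 against FF_TAC, while the adjusted p became 0.067 and 0.071. Activated fibroblast markers did move with both Ccn5 and Ccn2. Over all genes, 14.3% were called higher and 11.5% lower in KO_TAC against KO_sham, and 7.53% and 6.8% against FF_TAC. Of 8 activated fibroblast markers, among them Postn, Comp, Thbs4 and Cilp, 6 were called higher in KO_TAC against KO_sham and 7 against FF_TAC. Their summed level was 401 to 1482 CPM in KO_TAC, 98.9 to 175.8 in KO_sham, 108.3 to 293.1 in FF_TAC and 71.6 to 108.2 in FF_sham. It was 273.9 to 430.1 CPM in PBS_TAC against 131.3 to 247.6 in PBS_sham, and 181.6 to 579.9 in AAV_TAC against 59.6 to 186.8 in AAV_sham. No marker of the list had a group mean of 0 in the KO_TAC comparisons, the lowest being Cthrc1 at 0.154 CPM in FF_TAC. Other cell type markers were also called in the same comparisons. Of 8 fibroblast markers, 2 were called higher against KO_sham, near the share of all genes, and 4 against FF_TAC, among them Col1a1 and Dcn. The fibroblast sum was 3178 to 4561 CPM in KO_TAC, 2249 to 3025 in KO_sham and 2090 to 2449 in FF_TAC. Of 8 endothelial markers, 5 were called lower in each comparison, among them Kdr and Cdh5, with sums of 1642 to 2193 CPM in KO_TAC, 2451 to 2879 in KO_sham and 2380 to 2990 in FF_TAC. Of 8 cardiomyocyte markers, 3 were called lower against KO_sham and 2 against FF_TAC, with 0 higher. Of 8 smooth muscle and pericyte markers, 2 and 3 were called lower, with 0 higher. Of 8 macrophage markers, 1 was called lower against KO_sham and 3 higher against FF_TAC. The part of these marker lists in the Ccn2 and Ccn5 results was not tested. Within KO_TAC, library 1 had the lowest sum of activated fibroblast markers, the lowest Ccn5 and the highest Ccn2. Its fibroblast sum of 4561 CPM was the highest of that group.

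Ccn1, an immediate early gene, separated the libraries by haemoglobin class. The 7 low-haemoglobin libraries had 298.8 to 535.6 CPM, and the other 23 had 49.0 to 132.8 CPM, with no overlap. Of the 15596 genes tested for the floxed mice, 1.71% separated the same 7 and 23 libraries without overlap, 1.33% in the higher direction. These included 12 of the 15 early response genes, and Ccn1 was the 1 member among them. FF_sham libraries had 49.1, 49.0, 54.2 and 56.2 CPM. FF_TAC had 53.7, 386, 433 and 87.7 CPM, KO_sham 49.4, 480.4, 49.2 and 49.97 CPM, and KO_TAC 536, 477, 299 and 391 CPM. The values of 386 and 433 CPM are the libraries labelled FF_TAC 2 and 3, and that of 480.4 CPM is the library labelled KO_sham 2. In a fit with group means, low-haemoglobin libraries had 2.87 more Ccn1 than the others (log2, SE 0.20), the largest such term of the 5 members.

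None of the Ccn1 contrasts passed the test. The log2 fold change was 2.18 after TAC in controls (SE 0.76, adjusted p = 0.352), 1.44 after TAC in knockouts (SE 0.74, adjusted p = 0.157), 1.59 in KO_sham against FF_sham (SE 0.75, adjusted p = 0.950) and 0.85 in KO_TAC against FF_TAC (SE 0.74, adjusted p = 0.449). Without the library labelled KO_sham 2, Ccn1 was called after TAC in knockouts, at 3.11 (adjusted p = 0.0053). It was also called with limma voom at 2.47 (adjusted p = 0.0020), where voom called 8336 of 15596 genes. Against the library labelled KO_sham 2 alone, among low-haemoglobin libraries, KO_TAC differed by -0.18. Among high-haemoglobin libraries alone, KO_sham differed from FF_sham by -0.07. Early response transcripts were high in the same libraries, with 2 of 15 called higher in KO_TAC against KO_sham, near the 14.3% of all genes, and 13 of 15 without the library labelled KO_sham 2, where 11.3% of all genes were called higher. Their part in the Ccn1 values was not tested.

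In the AAV9 cohort, where no library had low haemoglobin, Ccn1 ran from 61.8 to 133 CPM. PBS_sham had 70.5, 74.0 and 81.0 CPM and PBS_TAC 62.4, 61.8 and 133 CPM. AAV_sham had 107, 105, 76.3 and 70.7 CPM and AAV_TAC 90.2, 130.4, 79.0 and 69.9 CPM. The groups overlapped, and log2 fold changes between them lay within 0.28 of 0, with adjusted p values of 0.524 and above. In order of group mean, PBS_sham (75.2 CPM) and FF_sham (52.1 CPM) did not overlap, although they come from different cohorts, and the other neighbours did. How many of all genes separated PBS_sham from FF_sham was not computed.

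**Figure D4:**
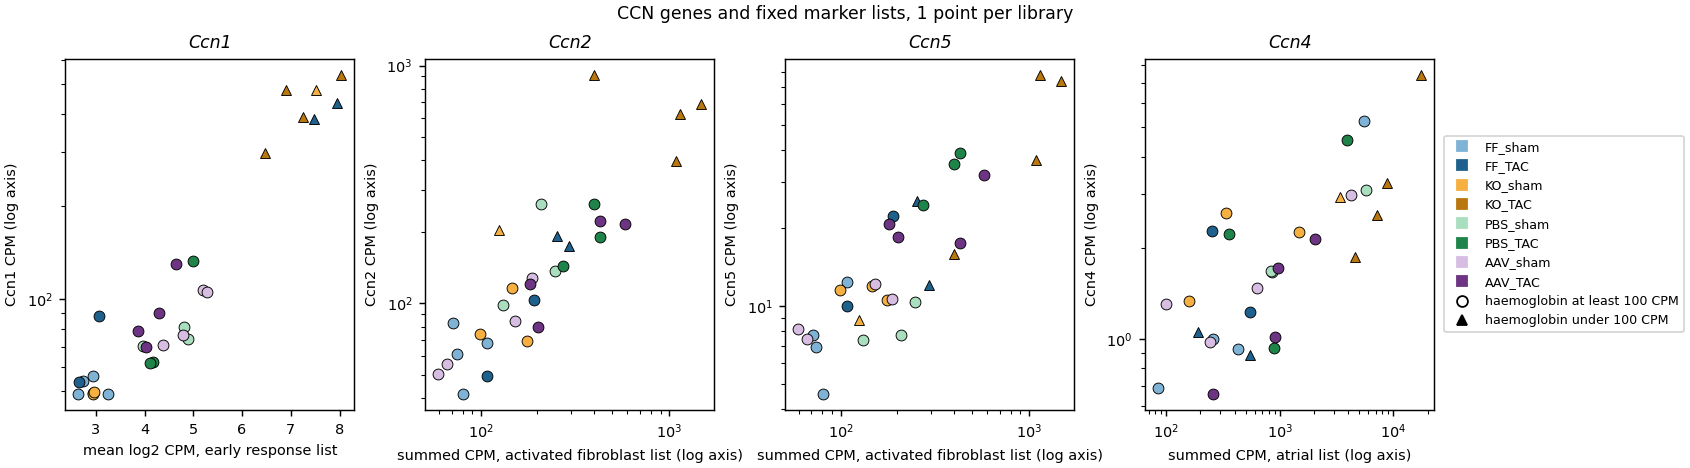
Each point is 1 library, coloured by group, with triangles for summed haemoglobin under 100 CPM. Panels plot the CPM of Ccn1 against the mean of 15 early response genes, Ccn2 and Ccn5 against summed activated fibroblast markers and Ccn4 against summed atrial markers. Ccn1 is at 298.8 to 535.6 CPM where the early response mean is 6.47 to 8.04.

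Ccn3, which is expressed in nerve and smooth muscle among other tissues, was low except in 1 library. It ran from 2.46 to 16.6 CPM in 29 libraries and reached 88.7 CPM in PBS_sham 3. The other saline sham libraries had 4.35 and 15.1 CPM, and PBS_TAC had 3.08, 5.08 and 3.01 CPM. AAV_sham had 4.55, 3.04, 3.11 and 3.33 CPM and AAV_TAC 3.58, 2.77, 3.85 and 4.04 CPM. PBS_sham was thus higher in mean and overlapped both neighbours. The log2 fold change was -3.21 in PBS_TAC against PBS_sham (SE 0.74, adjusted p = 0.117) and -3.30 in AAV_sham against PBS_sham (SE 0.67, adjusted p = 0.116). Without PBS_sham 3 they were -1.39 and -1.49, and without PBS_sham 1 both were called, at -3.72 (adjusted p = 0.0065) and -3.81 (adjusted p = 0.0022). Many other genes were called without PBS_sham 1 too, 1796 and 2821 of 16209. DESeq2 and the fit with no filter on low counts also called both Ccn3 contrasts. Over all genes, DESeq2 called 370 and 373 of 15745 there, and the unfiltered fit 112 and 182 of 31335. PBS_sham 3 also had the highest summed smooth muscle and pericyte markers, at 2610 CPM against 691 to 1360 elsewhere, the lowest cardiomyocyte sum and a TMM scaling factor of 1.35 against 0.87 to 1.12. Its sums of endothelial (3487 CPM) and Schwann cell markers (49.4 CPM) were the highest of the 30 libraries as well. Over all 30, Spearman's rho of Ccn3 was -0.12 with smooth muscle and pericyte markers and -0.43 with cardiomyocyte markers. It was 0.50 with fibroblast markers and 0.48 with early response genes. The part of any of these in the Ccn3 value was not tested.

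In the floxed cohort Ccn3 shared the haemoglobin split in part. FF_sham had 2.74, 4.07, 8.31 and 3.70 CPM, FF_TAC 2.46, 9.21, 11.1 and 3.004, KO_sham 3.22, 7.07, 3.04 and 3.88 and KO_TAC 16.6, 3.47, 3.67 and 11.3. The high values fell in libraries labelled FF_TAC 2 and 3 and KO_sham 2 and in KO_TAC 1 and 4, while KO_TAC 2 and 3 were low. Low haemoglobin went with 1.54 more Ccn3 (log2, SE 0.50). No contrast passed, with log2 fold changes of -0.14 to 1.04 and adjusted p values of 0.181 and above, the lowest being KO_TAC against KO_sham.

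Ccn4, a Wnt-induced member, was the scarcest, with 11 to 150 counts per library. FF_sham had 0.997, 5.22, 0.923 and 0.690 CPM, FF_TAC 1.23, 1.06, 0.884 and 2.27, KO_sham 2.60, 2.95, 1.33 and 2.25 and KO_TAC 7.44, 2.57, 3.28 and 1.87. KO_TAC 1 and FF_sham 2 held the highest values of the 30 libraries. In the AAV9 cohort PBS_sham had 1.66, 3.09 and 1.68 CPM, PBS_TAC 2.23, 4.53 and 0.934, AAV_sham 1.47, 2.98, 0.979 and 1.31 and AAV_TAC 1.72, 1.02, 2.14 and 0.657. All 8 groups overlapped their neighbours in order of mean, from KO_TAC (3.79 CPM) to FF_TAC (1.36 CPM). No contrast passed. The lowest adjusted p was 0.106, for KO_TAC against FF_TAC at 1.502 (SE 0.60).

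Atrial and fibroblast transcripts moved with Ccn4. Over the 30 libraries, which share groups, surgery and library effects, Spearman's rho of Ccn4 was 0.71 with the summed atrial markers, 0.70 with the summed fibroblast markers, -0.51 with those of smooth muscle and pericytes and -0.59 with those of cardiomyocytes. These transcripts moved with Ccn2 too, with a rho of 0.60 for the atrial and 0.59 for the fibroblast markers. The 6 atrial markers, including Myl7 and Nppa, summed to 17650 CPM in KO_TAC 1 and 5469 CPM in FF_sham 2, against 85.5 to 427 CPM in the other 3 FF_sham libraries. By group the sum ran over 4573 to 17650 CPM in KO_TAC, 159 to 3364 in KO_sham, 191 to 551 in FF_TAC, while PBS_sham had 838 to 5695, PBS_TAC 359 to 3872, AAV_sham 99.1 to 4208 and AAV_TAC 261 to 2039. Of 5 atrial markers tested, 1, Nppa, was called higher in each KO_TAC comparison. The share of all genes called higher was 14.3% against KO_sham and 7.53% against FF_TAC. Nppa is also a ventricular stress gene. The fibroblast sum of 3178 to 4561 CPM in KO_TAC overlapped the 1786 to 3854 CPM of the other groups. The part of atrial tissue or fibroblasts in the Ccn4 and Ccn2 values was not tested.

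Some genes of the surface proteins that bind CCN ligands also changed in the KO_TAC comparisons. Over all genes tested, 14.3% were called higher and 11.5% lower in KO_TAC against KO_sham. Of 15 receptor genes tested, 6 were called higher and 1 lower in KO_TAC against KO_sham, with a median log2 fold change of 0.16. Sdc4, a heparan sulphate proteoglycan, rose by 2.50 (SE 0.64, adjusted p = 0.0137). The integrin subunits Itga5 and Itgb3 rose by 1.53 (SE 0.36) and 1.47 (SE 0.31). Igf2r, the mannose-6-phosphate receptor, fell by 0.31 (SE 0.10). Against FF_TAC, 6 were higher (7.53% of all genes) and 1 lower, with a median of 0.65, and the largest rises were Fgfr2 at 2.30, Itgb3 at 1.36 and Itgam at 0.95. With the haemoglobin term, 1 and 3 of the 15 were called higher, where 0.866% and 3.91% of all genes were.

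Known regulators of Ccn1 and Ccn2 came next. Of 20 genes of the YAP, TAZ and TEAD pathway, 4 were called higher and 0 lower in KO_TAC against KO_sham, with a median of 0.13. Over all genes tested 14.3% were called higher, so 4 of 20 lies near the background. They were the TEAD cofactor Vgll2 (2.99, SE 0.80), the YAP-binding Amot (0.88, SE 0.23), Wwtr1, which encodes TAZ (0.42, SE 0.12), and the kinase activator Mob1b (0.40, SE 0.11). Of 21 other TEAD target genes tested, 9 were called higher and 0 lower against the same background, with a median of 0.26. Gadd45b, a stress-response gene, had the largest change at 3.30 (SE 0.85), followed by the kinase gene Nuak2 at 3.17 (SE 0.78) and Fjx1 at 2.85 (SE 0.82). Against FF_TAC, 1 pathway gene, Mob1b (0.44, SE 0.11), and 7 target genes were called higher, with medians of 0.05 and 0.19, where 7.53% of all genes were called higher, so that the single pathway gene is no more than the background share. The largest there were Tgfb2 (1.49), the muscle ankyrin repeat gene Ankrd1 (1.42) and Fstl1 (1.41). With the haemoglobin term, 0 pathway genes and 3 and 4 target genes were called higher, beside the same 0.866% and 3.91% of all genes.

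Of 20 TGF-beta ligands, receptors, mediators and targets, 10 were called higher and 1 lower in KO_TAC against KO_sham (14.3% and 11.5% of all genes), with a median of 0.51. Ltbp2, a matrix protein of the latent TGF-beta binding family, rose by 3.999 (SE 0.49) and Postn, which encodes periostin, by 2.87 (SE 0.45). Ltbp1 fell by 0.63 (SE 0.21). Against FF_TAC, 8 were higher and 0 lower (7.53% of all genes higher), with a median of 0.59, led by Ltbp2 (3.005), Postn (2.32) and Tgfb2 (1.49). With the haemoglobin term, 3 and 6 were called higher, again beside 0.866% and 3.91% of all genes. Among 12 serum response factor target genes, 2 were called higher against KO_sham, Acta1 (3.45, SE 0.76) and Srf itself (0.45, SE 0.13), with a median of 0.23. That is 2 of 12 where 14.3% of all genes were called higher, a share near the background. There were 0 against FF_TAC, where 5 had an unadjusted p under 0.05, DESeq2 called 1 and limma voom 3. Over all genes there, 31.1% had an unadjusted p under 0.05, and DESeq2 called 3058 and limma voom 6002 of 15596. These lists share 3 genes, and Ltbp2 and Postn are also among the activated fibroblast markers. In the other 8 comparisons, edgeR called 0 genes of the 5 lists. Per list and comparison, 0 to 9 genes had an unadjusted p under 0.05, DESeq2 called 0 to 6 and limma voom 0 to 6. Over all genes, 3.19% to 20.7% had an unadjusted p under 0.05 there, DESeq2 called 3 to 377 and limma voom 0 to 2930.

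Other genes followed the members across the 30 libraries, ranked among 13765 genes by Spearman's rho of log2 CPM. Ccn1 was followed by 3 members of the Egr family of early response factors: Egr3 (0.91), Egr2 (0.90) and Egr1 (0.90), with 0.85, 0.79 and 0.79 over the 23 high-haemoglobin libraries. Ccn2 was followed by the nuclear lamin gene Lmna (0.91, and 0.87 over the 23), the stress gene Nupr1 (0.89 and 0.86) and Lbp (0.89 and 0.81). For Ccn5 the closest were the collagen gene Col8a1 (0.91 and 0.90), the matrix gene Cilp (0.90 and 0.86) and Chmp3 (0.89 and 0.85). Ccn4 was followed by the natriuretic peptide receptor gene Npr3 (0.88 and 0.84), the kinase gene Pdk3 (0.80 and 0.73) and Olfm1 (0.80 and 0.76). For Ccn3 the closest were Camkmt (0.79 and 0.82), Tbc1d9 (0.78 and 0.71) and Aacs (0.77 and 0.73). After the group means were taken out, rho for the closest gene was 0.86 for Ccn1, 0.74 for Ccn2, 0.72 for Ccn3, 0.83 for Ccn4 and 0.52 for Ccn5. The points share group, surgery, haemoglobin class and library, so these values describe the 30 libraries.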

How the data were processed

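Whole-heart poly(A) RNA was sequenced from stranded libraries. The authors deposited whole-number counts per gene, made with HISAT2 2.1.0, featureCounts and Subread 1.5.1 on GRCm38, per the submitters' processing notes. The annotation release and strand setting are not given in the sources used here. Of 55487 identifiers, 55141 had a symbol in GENCODE M21, and the rest held 0.0192% of counts. KO_TAC titles name both TAC and sham; their genotype and treatment labels were used. Per cohort, group means were fitted and compared by the quasi-likelihood test of edgeR 4.0.16 (R 4.3.3; TMM, filterByExpr), with Benjamini-Hochberg adjustment over all genes tested and calls at 0.05, in 10 comparisons. CPM use TMM over all 30 libraries. Alternatives used DESeq2 1.42.0, limma 3.58.1 and other settings. The members, gene lists and haemoglobin limit (100 CPM) were chosen with earlier results of these data known. Named list genes are the called ones with the largest change, at most 3 per direction, and Mob1b, added after its values were seen. Co-varying genes are the 3 with the highest Spearman rho (mean of at least 1 CPM, prior count 2). Nothing says that libraries of a group are separate animals, so p-values measure the spread between these samples. No pair of libraries within a group (42 pairs) was a duplicate, with chi-square per degree of freedom of 6.80 to 262. Scripts were tested on simulated data. MicroRNA samples were not analysed here.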

Additional observations from a re-analysis of the deposited data

Results flagged for a closer look

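Single libraries stood apart in 2 of the 30 sets of 4 libraries (5 members in 6 groups), by a gap to the nearest library that was large for the range of the group. Chance gives about 1 in 20 sets. Ccn1 stood at 480.4 CPM in the library labelled KO_sham 2, where the other KO_sham libraries had 49.2 to 49.97 CPM. Ccn4 stood at 5.22 CPM in FF_sham 2, where the other FF_sham libraries had 0.690 to 0.997 CPM.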

How the results depend on the processing

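Under other settings, 425 member values kept their direction and side of the threshold, 23 changed sign, 14 gained a call and 11 lost one. With 1 library left out the numbers were 413, 27, 3 and 7. Called counts changed as follows. The PBS_TAC count of 1 became 2 with DESeq2, limma voom and no filter on low counts, and 0 when 1 fit held all 30 libraries, when it held PBS_sham and PBS_TAC alone, or with a covariate for atrial tissue (log2 Myl7, chosen after seeing the data). KO_TAC against KO_sham, with 2 members, gave 3 with voom, 1 with the haemoglobin term and 0 among low-haemoglobin libraries. KO_TAC against FF_TAC gave 1 with that term or only its groups, and 0 among low-haemoglobin libraries. From 0, AAV_TAC against AAV_sham became 1 (DESeq2, voom, no filter, only its groups), AAV_sham against PBS_sham 1 (DESeq2, no filter, all 30) and the knockout interaction 2 (voom). With 1 library left out, counts ran from 0 to 1 for AAV_sham against PBS_sham, 1 to 2 for KO_TAC against FF_TAC, 2 to 3 for KO_TAC against KO_sham (3 without KO_sham 2) and 0 to 2 for PBS_TAC.

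Uncalled log2 fold changes that changed sign were these. With voom: in FF_TAC against FF_sham Ccn3 -0.091 and Ccn4 0.35; in PBS_TAC against PBS_sham Ccn1 -0.10, Ccn2 -0.18 and Ccn4 -0.12; Ccn1 -0.0065 in AAV_TAC against AAV_sham, 1.15 and 0.092 for the interactions; Ccn3 0.016 in AAV_TAC against PBS_TAC. With the atrial covariate: Ccn4 0.083 in FF_TAC, 0.25 in AAV_TAC against AAV_sham and 0.026 in AAV_sham; Ccn1 -0.019 in AAV_TAC. With the haemoglobin term: Ccn3 -0.61 in FF_TAC, -0.038 in KO_TAC against KO_sham and -0.028 against FF_TAC, where Ccn1 was -0.093. Within 1 haemoglobin class: Ccn3 -0.80 in FF_TAC and -0.21 in KO_TAC against FF_TAC; Ccn1 -0.18 in KO_TAC and -0.072 in KO_sham. With 1 library left out, Ccn1 ran from -0.17 to 0.15 in AAV_TAC against AAV_sham, -0.11 to 0.56 against PBS_TAC, -0.081 to 1.89 in KO_sham, -0.23 to 0.41 in PBS_TAC, -1.07 to 0.93 and -0.38 to 0.27 for the interactions. Ccn3 ran from -0.050 to 0.18 in AAV_TAC against AAV_sham, -0.21 to 0.23 against PBS_TAC, -0.043 to 0.87 in KO_TAC against FF_TAC and -0.49 to 0.28 in KO_sham. Ccn4 ran from -0.58 to 0.13 in AAV_TAC, -0.76 to 0.054 in AAV_sham, -0.92 to 0.63 in FF_TAC, -0.082 to 1.38 in KO_sham, -0.43 to 0.69 in PBS_TAC and -0.98 to 0.14 for the vector interaction. The cause was not tested.

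Shared replicate numbers did not pair the libraries: in each comparison at least 1 same-numbered correlation was under 0.1, and not every library correlated best with its own number. With a replicate block the PBS_TAC count fell to 0 (Ccn5 1.98, adjusted p = 0.112), and the KO_TAC against KO_sham count was 3, with Ccn1 at 2.15 (adjusted p = 0.0451). Uncalled Ccn1 became 0.35 for the knockout interaction and Ccn3 -0.032 in AAV_TAC against AAV_sham. Depth limits Ccn4, at 11 to 150 counts, and the 3 or 4 libraries per group limit each test.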
